A study of Mus musculus with 8 samples.

Results

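Pax6 sites in core promoters are the Pax6 ChIP-seq (chromatin immunoprecipitation with sequencing) windows that the authors annotated to within 1 kb of a gene start. They were taken from the authors' deposited table by its annotation alone, with no use of signal, and number 5094 of its 26244 sites (19.4%). Each is a window of 100 bp on the mouse build mm10, and together they carry 4423 genes. The chromatin came from alphaTC1 cells, a line of glucagon-producing islet cells of the mouse. One group had received antisense oligonucleotides with a scrambled sequence (control KD) and the other had received oligonucleotides against Paupar (Paupar KD), with no allele, dose or time in the labels. Each group has 2 Pax6 ChIP libraries, described as duplicate biological samples, and 2 input libraries that were not analysed here. The model is 1 cell line, and how far Paupar RNA was lowered cannot be read from ChIP.

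Pax6 binds DNA through a paired domain and a homeodomain, and it keeps alpha and beta cells of the islet in their endocrine state. Paupar is a long non-coding RNA whose gene neighbours Pax6. A core promoter is the stretch around a transcription start where RNA polymerase II is loaded. Many mouse core promoters are rich in CpG dinucleotides and belong to genes that most cells use, whereas promoters of tissue-specific genes are more often poor in CpG. The comparison asks where Pax6 occupancy of promoters differed after Paupar KD.

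The signal in the authors' deposited table is a log2 concentration per group, a mean over the 2 libraries, with no value per library. A change is given here as Paupar KD minus control KD on that log2 scale, and a site is called where the authors' false discovery rate (FDR) is below 0.05. A site with a concentration at or below 0 in a group is said to be listed at the floor. The 4 ChIP libraries held 9983 to 17942 peak summits, and 17942 of these were in Paupar KD replicate 2. The read depth of the libraries is unknown. Expression markers of alpha cells cannot be read from ChIP, but the Gcg promoter (glucagon precursor) carried a summit in all 4 libraries.

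The windows below show what lies at these sites in the strand direction of each gene, from RefSeq promoter sequence of GRCm38.p6, the assembly that mm10 coordinates belong to. All lie upstream of the starts in that table. Capitals mark short motifs searched on both strands: GCATGCGC (NRF1), TTCACGC (core of the Pax6 paired-domain site), CCAAT (NF-Y) and GGGCGG (SP factors). Wipi2 and Cherp are the strongest sites whose window could be read in this way. Rsrc2, chosen after its values were seen, has the paired-domain core. Mast2 and Kctd5 are among the sites that fell with the smallest FDR, and 5330439B14Rik is among those that rose; Clec2d, a further site that rose, was chosen after its values were seen.
Wipi2 (chr5:142629392-142629491, plus strand): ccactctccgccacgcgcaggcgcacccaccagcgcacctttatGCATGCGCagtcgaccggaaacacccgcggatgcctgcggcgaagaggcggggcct
Cherp (chr8:72475305-72475404, minus strand): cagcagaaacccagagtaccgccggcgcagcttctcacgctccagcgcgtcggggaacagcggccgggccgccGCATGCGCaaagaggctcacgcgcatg
Rsrc2 (chr5:123749482-123749581, minus strand): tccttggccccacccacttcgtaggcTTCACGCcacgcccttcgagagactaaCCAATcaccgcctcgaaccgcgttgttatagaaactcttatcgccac
Mast2 (chr4:116464333-116464432, minus strand): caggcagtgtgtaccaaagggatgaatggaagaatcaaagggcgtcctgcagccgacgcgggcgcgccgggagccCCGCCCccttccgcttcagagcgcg
Kctd5 (chr17:24073496-24073595, minus strand): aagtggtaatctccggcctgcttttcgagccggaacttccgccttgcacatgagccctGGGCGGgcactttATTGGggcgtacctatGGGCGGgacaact
5330439B14Rik (chr6:142614369-142614468, plus strand): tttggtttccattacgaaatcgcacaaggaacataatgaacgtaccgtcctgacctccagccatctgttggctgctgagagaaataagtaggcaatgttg
Clec2d (chr6:129180459-129180558, plus strand): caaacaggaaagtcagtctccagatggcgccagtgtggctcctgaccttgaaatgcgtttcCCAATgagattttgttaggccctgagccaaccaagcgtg

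The Wipi2 window had 13 CpG dinucleotides and a GC content of 70%, and the Cherp window had 14 and the same GC content. There were 4 CpG in the 5330439B14Rik window, 3 at Clec2d, 11 at Mast2 and 7 at Kctd5. Some other windows that fell, named after their values were seen, had as few, with 0 at 4632428C04Rik and 3 at Ctu1. A motif match is a description of letters and does not show that the factor binds.

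Core promoter sites carried a strong signal. Their median concentration was 5.56 after control KD and 5.29 after Paupar KD by the authors' deposited table, against 4.10 and 4.31 at the other 21150 sites. Of the 5094 sites, 2655 (52.1%) were in the highest quartile of mean signal over all sites. The 10 strongest by mean signal were at Pisd-ps3, Wipi2, Cherp, Chchd5, Blvra, Sfi1, Rex1bd, Tcaf1, Trir and Bcl2l13. Pisd-ps3 is a transcribed pseudogene, and its site is on the scaffold Un_JH584304. The Sfi1 site had a summit in only 2 libraries, ranking 11330 in control KD replicate 1 and 4287 in Paupar KD replicate 2. Wipi2 encodes a phosphoinositide-binding protein of autophagy, Blvra biliverdin reductase and Bcl2l13 a mitochondrial Bcl-2 relative. At Wipi2 the authors' deposited table gave 10.01 and 9.34 for control KD and Paupar KD, a change of -0.67 (FDR 0.0122). All 10 had a lower concentration in Paupar KD, between -0.35 and -0.67 on the log2 scale, and Wipi2 and Trir were the 2 that passed the FDR threshold. Trir had 9.33 and 8.68 by the authors' deposited table (FDR 0.0485).

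Of the called core promoter sites, more were lower than higher after Paupar KD. By the authors' deposited FDR, 47 rose (0.923% of 5094) and 89 fell (1.75%). Over all 26244 sites 3.26% were called higher and 0.846% lower, 4.1% in all. Of the sites outside core promoters, 808 (3.82%) rose and 133 (0.629%) fell. So 34.6% of core promoter calls were higher, against 85.9% of the calls elsewhere. The promoter classes farther out did not share this split: between 1 and 2 kb from a start, 39 of 1205 sites rose and 6 fell, and between 2 and 3 kb, 27 of 917 rose and 5 fell. Sites are not replicates, so these shares describe the sites of this table and carry no test.

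The calls in the 2 directions came from different ranges of signal. Sites that rose went from a median concentration of 2.09 to 5.27 after Paupar KD by the authors' deposited table, with changes from 1.04 up to 4.23 where control KD was above the floor. Sites that fell went from 7.57 to 6.57, with changes from -0.65 to -2.22. Their median after Paupar KD was still above that of all core promoter sites in that group (5.29). All 47 higher calls changed by at least 1 on the log2 scale, while 48 of the 89 lower calls did; over all sites these made up 3.23% and 0.537%. At an FDR below 0.1, 75 core promoter sites rose and 181 fell, where 4.99% and 1.8% of all sites did. At an FDR below 0.01 the counts were 14 and 13, where 1.39% and 0.137% of all sites passed. At an unadjusted p below 0.05 they were 176 and 649, where 10.7% and 6.67% of all sites passed. In the plot of change against signal the lower calls follow the lower edge of the strong sites, and the higher calls sit apart, mostly at weak to middling signal.

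**Figure D1:**
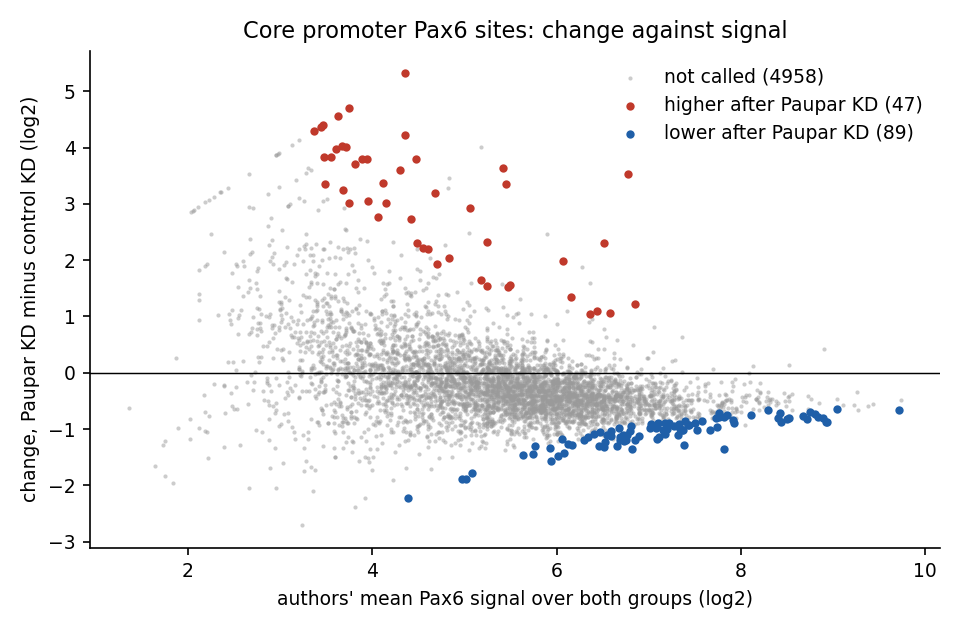
Each point is 1 core promoter site, by the authors' mean Pax6 signal over both groups (x axis, log2) and the change, Paupar KD minus control KD (y axis, log2). The 47 sites called higher (red) lie at a median control KD signal of 2.09 and the 89 called lower (blue) at 7.57; grey points were not called.

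The whole distribution of changes was also shifted. The median change over all 5094 sites was -0.30 (quartiles -0.59 and 0.07), and 70.6% of the sites lay below 0. Outside core promoters the median was 0.08, and over all sites it was -0.03. Changes ran lower at stronger sites in both classes, so the classes were also set side by side within twentieths of mean signal. The core promoter median was below that of the other sites in 19 of 20 twentieths, with a median difference of -0.115 on the log2 scale (from -0.25 to 0.10). If core promoter sites had been called at the rates of other sites of like signal, 225.4 would have risen and 83.2 fallen, against the 47 and 89 observed. The count of lower calls was thus near that rate, and the count of higher calls was far below it.

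**Figure D2:**
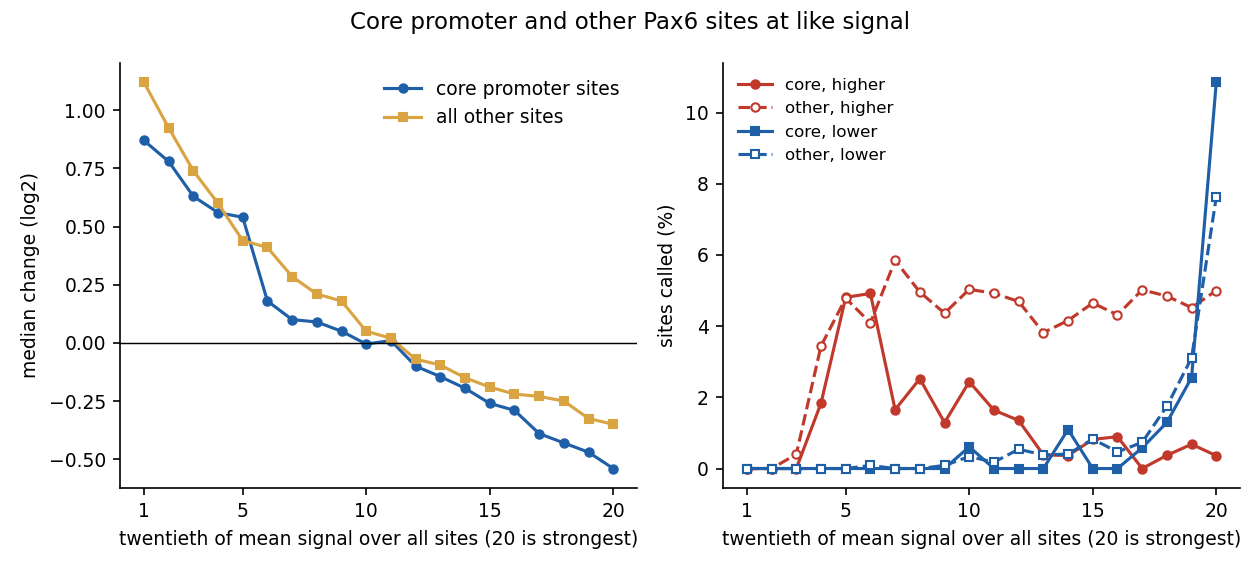
Sites were split into 20 equal groups of mean signal over all sites (x axis). Left: median change (log2) of core promoter sites (blue circles) and all other sites (yellow squares), with core promoters lower in 19 of 20 groups; right: percent of sites called higher (red) and lower (blue), filled for core promoter sites and open for other sites.

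The highest quartile shows the difference with the most sites. There, 12 of 2655 core promoter sites rose (0.452%) and 85 fell (3.20%). Of the 3928 other sites in that quartile, 186 rose (4.74%) and 103 fell (2.62%). The median change was -0.44 at core promoters and -0.28 elsewhere, and 88.2% and 69.3% of the sites were below 0. In the lowest quartile, with 456 core promoter sites, the median change was 0.66. There 6 rose (1.32%) and 0 fell at DiffBind's FDR below 0.05 (53 and 2 at an unadjusted p below 0.05). Of the 6053 other sites in that quartile, 99 rose (1.64%) and 0 fell, with a median of 0.73, so the classes differed little there. In this quartile 66 core promoter sites and 944 other sites lay outside the FDR adjustment and could not be called.

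Signal was highest at the start and fell off on both sides. A total of 1520 windows spanned the start, 1827 lay upstream and 1747 downstream, and 4170 were within 500 bp. Windows at the start had median concentrations of 5.91 (control KD) and 5.54 (Paupar KD) by the authors' deposited table. Windows more than 500 bp upstream had 4.87 and 4.94, and those more than 500 bp downstream had 4.74 and 4.72. The median change was -0.39 at the start, -0.14 at the far upstream sites and -0.05 at the far downstream ones. Of the 89 sites that fell, 39 spanned the start and 74 (83.1%) were within 250 bp, where 68.0% of all core promoter sites lay. Of the 47 that rose, 12 spanned the start and 20 (42.6%) were within 250 bp.

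**Figure D3:**
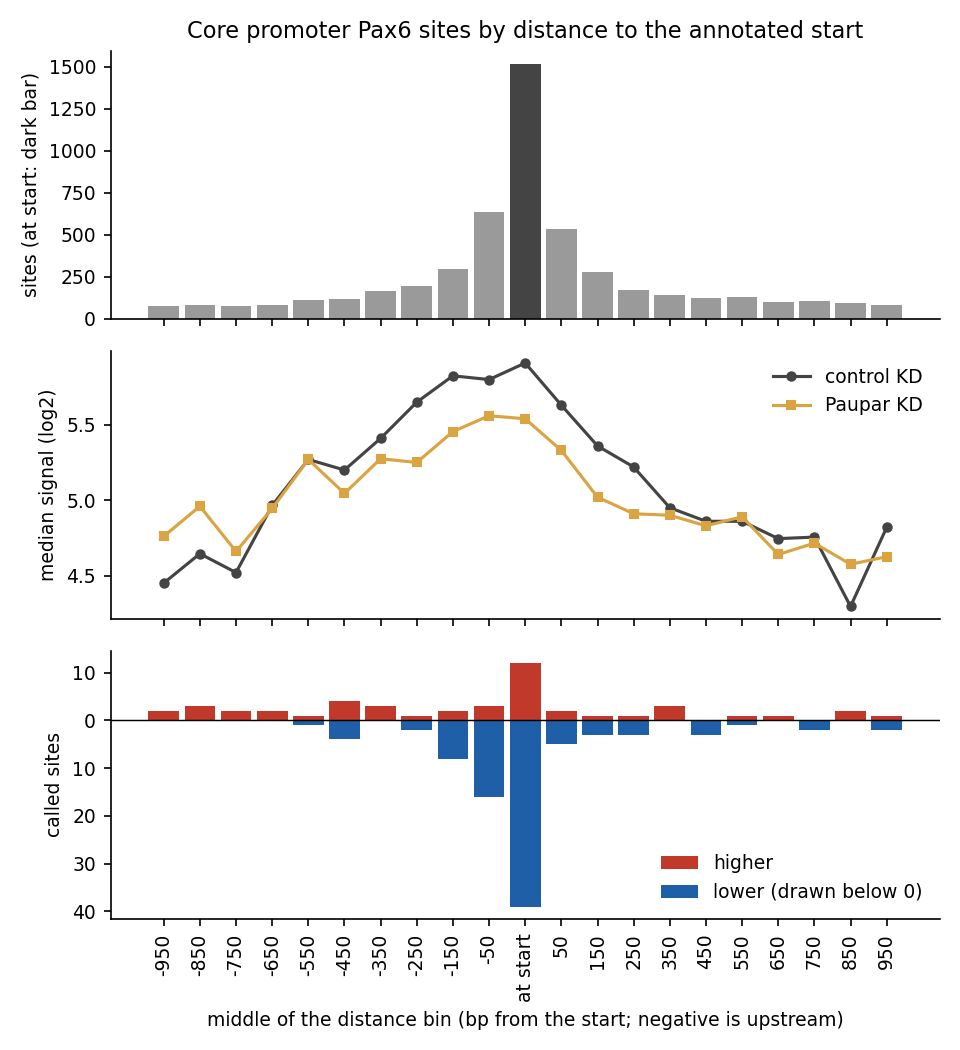
Core promoter sites in 100 bp steps of distance to the annotated start (x axis, negative is upstream), with windows that span the start drawn apart. Top: number of sites, 1520 of them at the start; middle: median signal (log2) in control KD and Paupar KD, 5.91 and 5.54 at the start; bottom: sites called higher (red) and lower (blue, drawn below 0), 12 and 39 at the start.

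The distance trend in median change was smaller within the highest quartile of signal. There the median change was -0.46 at the start, -0.45 up to 250 bp from it, -0.41 up to 500 bp and -0.39 beyond. Lower calls there made up 3.75%, 3.15%, 2.70% and 2.04% of the sites in the same order. Higher calls there were few and more frequent far from the start, at 0.203%, 0%, 1.01% and 2.38%. At the upstream edge of the class, Shank2 at -998 bp had 3.59 and 2.53, and Septin9 at -997 bp had 4.02 in control KD with a change of -0.02, by the authors' deposited table. Just outside, at -1004 bp, Kmt2d had 7.13 and 6.46 and 4930512J16Rik had 4.76 and 5.13 by the authors' deposited table. The 2 sites at 1000 bp downstream, at Septin9 and Prr29, had 7.20 and 7.04, and 4.86 and 4.81, by the authors' deposited table. Just outside, Adhfe1 at 1002 bp had 2.72 and 3.70, and Nkiras2 at 1003 bp had 7.10 and 7.01, by the authors' deposited table.

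The annotation counts any transcript's start, so a core promoter site need not be at the main promoter of its gene. By the RefSeq gene models, 3243 sites were within 1 kb of the 5′ end of their gene and 1848 were not; 3 had no gene entry there. At gene 5′ ends 20 sites rose and 70 fell, with a median change of -0.35. At the other starts 26 rose and 19 fell, with a median of -0.17. The 2 sets also differed in signal, with 62.0% of the sites at gene 5′ ends and 34.8% at the other starts in the highest quartile. They were not compared at like signal. Protein-coding genes held 4723 of the sites (92.7%), long non-coding RNAs 279 and microRNA genes 55.

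The site with the smallest FDR among all that rose was at Slc17a4, a phosphate and organic anion transporter of the Na/Pi family. It had 4.12 after control KD and 7.66 after Paupar KD by the authors' deposited table, a change of 3.54 (FDR 8.79e-16). The site lay 953 bp downstream of a start and not at the gene's 5′ end. Its summit ranked 116 in Paupar KD replicate 1 and 105 in Paupar KD replicate 2, among 15611 and 17942 summits, but 5504 in control KD replicate 1, and control KD replicate 2 had none. A site of Alyref2, an RNA export factor gene, at -890 bp had 2.67 and 6.31 by the authors' deposited table (FDR 1.14e-06). It had a summit in both Paupar KD libraries but in neither control KD one. Another Alyref2 site, spanning a start, was stronger, with a mean signal of 7.8 against 5.42. That site had a change of -0.54 and was not called.

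Other sites that rose had functions of several kinds. Ppargc1a, the coactivator of mitochondrial biogenesis and gluconeogenesis, had 1.04 and 5.27 at an alternative start by the authors' deposited table (FDR 0.00100). Pde4b, a cAMP phosphodiesterase, had 1.58 and 5.37 by the authors' deposited table (FDR 0.00114), with a summit only in Paupar KD replicate 1. Brpf1, a chromatin reader of histone acetyltransferase complexes, started high and had 6.11 and 7.33 by the authors' deposited table (FDR 0.00280), with summits in all 4 libraries. Tmem69, B230216N24Rik, Armc10 and 5330439B14Rik were also among the 12 with the smallest FDR, as were the islet genes St18 and G6pc2, and those first 4 rose by 2.33 to 3.60.

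At 6 of the 47 sites that rose, control KD was listed at the floor, and no fold is given. These were at Hepacam2, Gcg, 4930444M15Rik, Msh3, Cwf19l2 and Mir344. Hepacam2, an immunoglobulin superfamily gene, was listed at -0.01 after control KD and 5.31 after Paupar KD by the authors' deposited table (FDR 0.000821). Msh3, a mismatch repair gene, was listed at -0.01 and 4.40 by the authors' deposited table (FDR 0.0287). No library had a summit within 250 bp of the Cwf19l2 site, at -0.01 and 4.37 by the authors' deposited table (FDR 0.0309).

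Among the sites that fell, Leprotl1, which encodes a relative of the leptin receptor's overlapping transcript, had the smallest FDR. Its concentrations were 8.34 after control KD and 6.98 after Paupar KD by the authors' deposited table, a change of -1.36 (FDR 6.45e-06). Mast2, a microtubule-associated kinase gene, had 7.88 and 6.60 by the authors' deposited table (FDR 0.000713). Rdh13, a mitochondrial retinol dehydrogenase gene, had the lowest change of the 12 fallen sites with the smallest FDR, from 6.52 to 4.96 by the authors' deposited table (FDR 0.00376). Mbd3, a subunit of the NuRD chromatin remodelling complex, had 9.31 and 8.43 by the authors' deposited table (FDR 0.00176). Zfp651 and Fbxw17, an F-box gene, were as strong, with 9.29 and 8.42, and 9.08 and 8.26, by the authors' deposited table (FDR 0.000777 and 0.00583).

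Further sites of that group were at genes of varied function. Dguok, the mitochondrial deoxyguanosine kinase gene, had 7.56 and 6.38 by the authors' deposited table (FDR 0.00837). Dpp9, a cytosolic dipeptidyl peptidase gene, had 7.02 and 5.70 by the authors' deposited table (FDR 0.00643). Kctd5, a cullin adaptor gene, had 7.76 and 6.76 by the authors' deposited table (FDR 0.00708). Cdpf1 and Gin1 were also among the 12.

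Peak summits are the only values per library, and they did not follow the concentrations closely at the sites that fell. Of the 89, a summit lay within 250 bp at 74 in control KD replicate 1, 70 in control KD replicate 2, 44 in Paupar KD replicate 1 and 73 in Paupar KD replicate 2. At 14 of them neither Paupar KD library had a summit within 250 bp, and none of the 14 had one within 1000 bp either. Mbd3 was one of these 14, and its Paupar KD concentration was 8.43 by the authors' deposited table. Of the 47 that rose, 10, 5, 44 and 26 had a summit in the 4 libraries in the same order. Paupar KD replicate 1 was the only library with a summit at 19 of the 47 and at 0 of the 89. Without those 19 sites, 28 calls were higher.

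The library Paupar KD replicate 2, which held the most summits (17942), had one at the largest share of core promoter sites. It had a summit at 76.4% of the core promoter sites, against 49.6% and 38.0% in the control KD libraries and 50.5% in Paupar KD replicate 1. At other sites the shares ran from 34.1% to 60.0%, with the highest again in Paupar KD replicate 2. It was the only library with a summit at 1194 core promoter sites (23.4%) and at 14.9% of the other sites. Those 1194 sites had a median change of -0.17, with 1 higher and 7 lower. With 2 libraries a group, an exact permutation test of a difference between groups cannot go below 0.333 (two-sided), and none was made.

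Strong core promoter signal did not always come with a peak in every library. In the highest quartile of signal 966 of 2655 core promoter sites (36.4%) had a summit in all 4 libraries, against 2919 of 3928 other sites (74.3%). A summit in a single library was found at 704 core promoter sites (26.5%) and 144 other sites (3.67%), and Paupar KD replicate 2 was that library at 551 of the 704. Widening the match to 1000 bp left the shares at 42.1% and 80.1%. Sfi1, one of the 10 strongest sites, had a best summit rank of 4287. Core promoter sites with a summit in both Paupar KD libraries and in neither control KD library numbered 394; 15 rose and 0 fell. Elsewhere 402 of 1772 such sites rose.

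**Figure D4:**
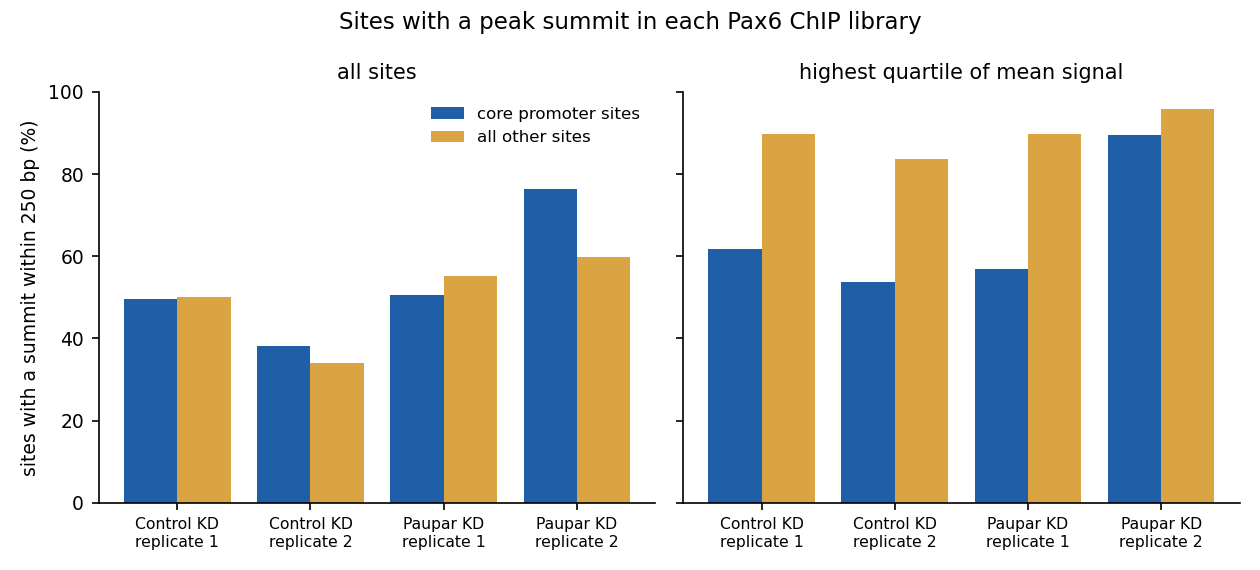
Percent of sites with a peak summit within 250 bp (y axis) in each of the 4 Pax6 ChIP libraries, for core promoter sites (blue) and all other sites (yellow). Over all sites (left) Paupar KD replicate 2 had a summit at 76.4% of core promoter sites and the other libraries at 38.0% to 50.5%; in the highest quartile of mean signal (right) the other libraries had a summit at 53.7% to 61.7% of core promoter sites and at 83.6% to 89.7% of other sites.

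Sites that rose had a lower median CpG content than those that fell, with overlapping ranges. Promoter sequence with a start within 1 kb was at hand for 3204 sites, and the observed to expected CpG ratio of the nearest promoter of 300 bp had a median of 0.698. It was 0.359 at the 24 sites that rose and had such a promoter, and 0.815 at the 64 that fell. A ratio of at least 0.6 was found at 8 of the 24 (33.3%) and 50 of the 64 (78.1%), against 62.9% of the sites that were not called. CpG-rich promoter sites had stronger signal, with medians of 6.10 and 5.72 after control KD and Paupar KD by the authors' deposited table, against 5.18 and 5.01 at CpG-poor ones. Among 2017 CpG-rich sites 8 rose and 50 fell, and among 1187 CpG-poor sites 16 rose and 14 fell. Within the highest quartile of signal the gap was small: 3.31% of CpG-rich and 2.63% of CpG-poor sites fell, with median changes of -0.45 and -0.41. Sites with starts on both strands within 1 kb, the layout of divergent promoters, numbered 596, of which 1 rose (0.168%) and 14 fell (2.35%). Of the 2608 sites with starts on 1 strand, 0.882% rose and 1.92% fell. CpG-rich sites made up 79.2% of the 596, and of all CpG-rich sites 0.397% rose and 2.48% fell.

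**Figure D5:**
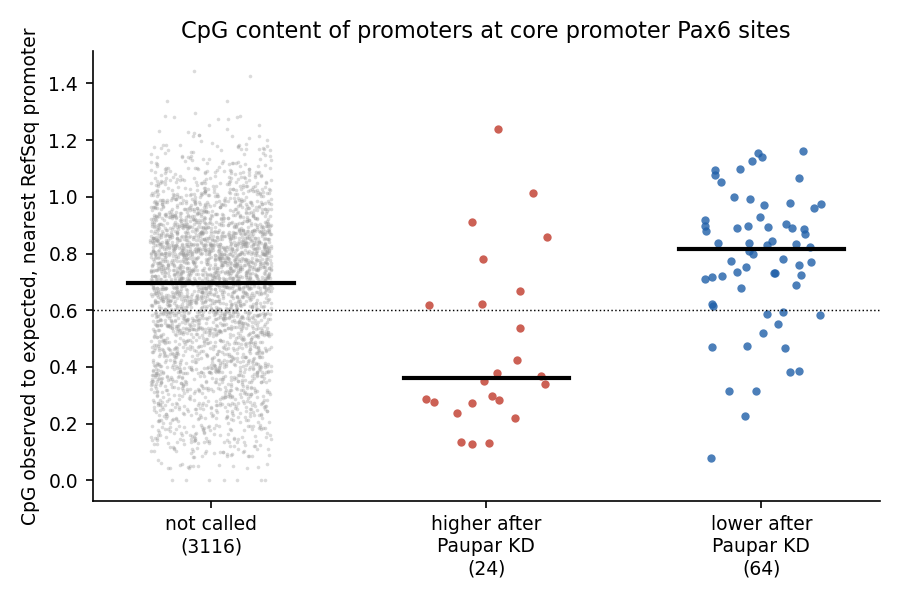
Observed to expected CpG ratio (y axis) of the nearest RefSeq promoter of 300 bp for 3116 core promoter sites that were not called, 24 called higher and 64 called lower. Each point is 1 site, spread sideways at random, black lines are medians (0.698, 0.359 and 0.815) and the dotted line is the ratio of 0.6.

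The promoters with a Pax6 site inside them were searched for 13 short motifs on both strands. A site counted as inside only where its whole window lay within the 300 bp, which held for 1127 windows (22.1% of the core promoter sites). Promoters counted as without a site may thus overlap one in part or have one close by. Of 32851 RefSeq promoters, 1313 held at least 1 core promoter site, and 74.8% of these were CpG-rich, against 34.2% of the rest. The paired-domain core TTCACGC, a short part of the Pax6 site, was in 2.36% of the promoters with a site and in 1.26% of all promoters. Among CpG-rich promoters alone it was in 3.05% with a site and 2.07% without. The homeodomain motif TAATTA was in 2.51% with a site and 5.29% of all. Among CpG-rich promoters alone it was in 2.04% with a site and 2.08% without, so the difference was not seen there. The letters of the ETS motif CCGGAAG were in 28.5% with a site and 8.86% of all, and in 34.3% and 17.3% of CpG-rich promoters with and without a site. Of the CpG-rich promoters without a site, 73.5% held GGGCGG, against 58.6% with a site.

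Some motifs went with signal as well. When the 1313 promoters were ranked by the Pax6 signal of their sites, CCGGAAG was in 35.7% of the top quartile and 17.0% of the bottom quartile. Of the CpG-rich ones alone, which were 299 of 333 strongest and 136 of 329 weakest, 37.8% and 27.9% held it. The palindrome CTCGCGAGA was in 5.41% of the strongest (18 of 333) and 0.304% of the weakest (1 of 329), and in 0.676% of all promoters. Of the CpG-rich ones alone, 6.02% of the strongest and 0.735% of the weakest held the palindrome. CCAAT had 42.0% and 48.0%, and the TATA motif TATAAA 2.70% and 8.21%. The letters CCAAT are short, and 37.4% of all promoters held them. No interval or test belongs to these shares, and transcription of the promoters was not measured here.

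Genes that define alpha cells had 13 core promoter sites at 10 genes, of which 1 rose, 0 fell and 7 lay below 0 (median -0.52). Over all core promoter sites 0.923% rose and 1.75% fell. The one that rose was the Gcg site at 62480465 to 62480564 on chromosome 2, listed at -0.01 and 4.69 by the authors' deposited table (FDR 0.0102), 114 bp downstream of an alternative start inside the gene. The site spanning the main Gcg start, chosen here after its values were seen, had 7.01 and 7.64 by the authors' deposited table (FDR 0.155). Its summit ranked between 213 and 344 in the 4 libraries. Irx1, an Iroquois homeodomain factor gene, had 5.46 and 4.34 by the authors' deposited table (FDR 0.286). Elsewhere in the genome 7 of 65 sites of these genes rose and 0 fell, where 3.82% and 0.629% of all sites outside core promoters did.

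Beta-cell genes had 7 core promoter sites, of which 3 rose and 0 fell (median -0.01), where 0.923% of all core promoter sites rose and 1.75% fell. The list was chosen with earlier results of these data known, so the contrast of these shares is no test and was not tested. Elsewhere in the genome 6 of 42 sites of these genes rose and 0 fell, where 3.82% and 0.629% of all sites outside core promoters did. Of the 7 core promoter sites, 4 lay below 0, the lowest at -0.91. At an unadjusted p below 0.05, 3 were higher and 1 was lower. The core promoter sites that rose were at G6pc2, the islet glucose-6-phosphatase gene, Prlr, the prolactin receptor gene, and Slc30a8, the zinc transporter of insulin granules. At Prlr the concentrations were 3.11 and 5.31 by the authors' deposited table (FDR 0.0303), and at Slc30a8 5.80 and 6.89 (FDR 0.0397) by the authors' deposited table. The Slc30a8 site had a summit in all 4 libraries, ranking 301 and 438 in the Paupar KD libraries and 1781 and 2961 in the control KD libraries. The sites at G6pc2 and Prlr had summits in both Paupar KD libraries but in neither control KD one. The observed to expected CpG ratio was 0.298 at G6pc2 and 0.134 at Prlr.

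Islet transcription factor genes had 23 core promoter sites at 12 genes, of which 1 rose and 0 fell (median -0.30). Over all core promoter sites the shares were 0.923% and 1.75%. St18, a zinc finger factor of the Myt1 family, had 4.75 and 6.74 by the authors' deposited table, a change of 1.99 (FDR 5.99e-05), with summits in all 4 libraries. Myt1 itself had 6.94 and 6.05 by the authors' deposited table (FDR 0.0795). The strongest uncalled sites of Neurod1, Sox4, Rfx6, Isl1, Foxa2 and Meis2, 1 for each gene, had changes from -0.91 to 0.04. Of all 23 sites in the list 9 lay above 0, and at an unadjusted p below 0.05, 4 were higher and 2 lower. Pax6 had 6 core promoter sites at several alternative starts, with concentrations in control KD from 3.58 to 7.52 by the authors' deposited table and 0 called by DiffBind's FDR (1 higher at an unadjusted p below 0.05). At the site within 1 kb of the Pax6 gene's 5′ end they were 5.97 and 5.67 by the authors' deposited table (FDR 0.754). The Paupar promoter site had 8.20 and 7.78 by the authors' deposited table (FDR 0.351), with summits ranking 146 to 320.

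Genes of hormone secretion and processing had 31 core promoter sites at 22 genes, of which 1 rose and 0 fell (median -0.25). Over all core promoter sites the shares were 0.923% and 1.75%. Ptprn, a dense-core granule protein gene, had 1.58 and 4.59 by the authors' deposited table (FDR 0.0370), with a summit only in Paupar KD replicate 1. Vgf, a granule peptide precursor gene, was the strongest uncalled one, with 8.33 and 8.02 by the authors' deposited table (FDR 0.504). Chga, the chromogranin A gene, had 6.18 and 5.64 by the authors' deposited table (FDR 0.509).

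Lists of genes that most cells use also had core promoter sites, and their counts of calls are read against 0.923% higher and 1.75% lower over all core promoter sites, shares that give few calls in lists of this size. Cytosolic ribosomal protein genes had 45 sites at 43 genes, of which 0 rose and 1 fell, and 39 lay below 0 (median -0.41). The one that fell was Rps28, with 8.73 and 8.02 by the authors' deposited table (FDR 0.0317), ranking 109 to 296 in the 4 libraries. Mitochondrial ribosomal protein genes had 33 sites with 0 calls by DiffBind's FDR (median -0.22); at an unadjusted p below 0.05, 1 was higher and 6 lower. Oxidative phosphorylation genes had 39 sites, of which 0 rose and Cox5b, a cytochrome c oxidase subunit gene, fell, with 8.31 and 7.42 by the authors' deposited table (FDR 0.0209). Translation factors and tRNA synthetases had 44 sites, proteasome genes 16, histone genes 21, protein folding and ER stress genes 16 and clock genes 13, and each of these 5 lists had 0 calls by DiffBind's FDR. At an unadjusted p below 0.05 the lower sites numbered 7, 1, 0, 0 and 2 in that order, and 1 clock site was higher. Their medians were -0.43, -0.47, -0.34, -0.26 and -0.33.

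The cell cycle list had 21 sites, of which 0 rose and 2 fell (median -0.49). Cdk7, the kinase of the CDK-activating complex and of TFIIH, had 6.67 and 5.39 by the authors' deposited table (FDR 0.0178). Cdc25b, a phosphatase that activates cyclin-dependent kinases, had 7.43 and 6.43 by the authors' deposited table (FDR 0.0203). Zinc finger genes named Zfp had 158 sites at 149 genes, of which Zfp444 rose and Zfp651, Zfp384 and Zfp422 fell (median -0.32). Zfp444 had 0.99 and 4.36 by the authors' deposited table (FDR 0.0438), with a summit only in Paupar KD replicate 1. Splicing factor genes had 45 sites, of which 1 rose and 0 fell: Mbnl1 had 1.73 and 4.79 by the authors' deposited table (FDR 0.0235). The NuRD, KAP1 and Polycomb list had 8 sites, with Mbd3 as its 1 lower call. All 16 lists had a median below 0, as had the core promoter sites as a whole (-0.30), and in all 16 the median at sites outside core promoters was higher. Together the lists held 533 core promoter sites, of which 8 rose and 8 fell.

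Most genes had a single core promoter site: 3879 had 1, 451 had 2 and 93 had at least 3. A total of 24 sites lay within 500 bp of another core promoter site. Adgrg1, an adhesion receptor gene, Gpsm1, a G-protein modulator gene, and Pax6 had 6 each, and Copg1 and Mcf2l were among those with 5. Every site of Adgrg1 and of Gpsm1 was lower in Paupar KD, with changes from -0.20 to -2.10 and from -0.12 to -0.69. In each gene 0 were called by DiffBind's FDR. At an unadjusted p below 0.05, 1 Adgrg1 site and 0 Gpsm1 sites were lower. Of all core promoter sites, 70.6% lay below 0. Copg1, a coat protein gene of Golgi vesicles, had 1 of its 5 sites higher, with 1.30 and 4.54 by the authors' deposited table (FDR 0.0424), while the sites at its main start had changes of -0.18 and -0.34.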

How the data were processed

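Pax6 ChIP-seq was done in alphaTC1 cells after control KD or Paupar KD, 2 ChIP libraries each. Bowtie2, MACS2, ChIPseeker and DiffBind are named, with no version, per the submitters' processing notes, as is the build mm10. What test, normalization or input DiffBind was run with is not given in the sources used here. Deposited concentrations and fold are the authors' log2 values; the sign of the fold was turned. The p-value and FDR are the authors', used as deposited, since the table holds group means and no refit can be made; 66 core promoter sites lay outside their adjustment. The deposited −log10 score of each summit, called per library, was used for ranks only. One list, of control KD replicate 2, has a different replicate number in its name and was assigned by the sample holding it. Depth is unknown and counting intervals were not computed. The p-values rest on these libraries alone, 2 a group, and what spread they measure is unknown because the test is not given. A site matched a summit within 250 bp of its middle. Quartiles and twentieths of mean signal were cut over all 26244 sites. RefSeq tables of GRCm38.p6 gave gene ends (99.9% of sites matched), promoters (250 bp before to 50 bp after a start, 32851 in all) and sequences; 9 symbols that a spreadsheet had made dates were restored. Named sites were the 12 higher and 12 lower calls with the smallest FDR, higher calls at the floor, the 10 strongest, called list genes, up to 8 uncalled genes of each of 3 islet lists, the 6 genes with most sites and the sites beside 1 kb; some of these are not reported here. Members and lists were chosen with earlier results of these data known. The matching steps were tested on simulated data. Python 3.11.15 and pandas 2.3.3 were used.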

Additional observations from a re-analysis of the deposited data

How the results depend on the processing

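Among core promoter sites the counts of 47 higher and 89 lower became 75 and 181 at an FDR below 0.1 (4.99% and 1.8% of all sites were called there), 14 and 13 at an FDR below 0.01 (1.39% and 0.137%), and 176 and 649 at an unadjusted p below 0.05 (10.7% and 6.67%). Lower calls with a change of at least 1 numbered 48 (0.537% of all sites). With a summit in at least 2 libraries 26 rose, and with one in all 4 libraries 4 rose and 39 fell. Near a RefSeq gene 5′ end 20 rose. Without sites whose only summit was in Paupar KD replicate 1, an alternative chosen after seeing the data, 28 rose, and without those whose only summit was in Paupar KD replicate 2, 46 rose. The median change of -0.30 became -0.27 after subtracting the median of all sites, -0.34 within 500 bp of the start and -0.34 for the strongest site per gene, and -0.07 after subtracting the median of all sites in the same twentieth of signal. Core promoter sites with a summit in all 4 libraries, 1133, became 702 within 100 bp, 746 with the 9000 highest summits of each list, and 1202 to 1493 when a library was left out. Those in the Paupar KD libraries alone, both of them, 394, became 111 with the 9000 highest summits and 522 to 1588 when a library was left out; those in both control KD libraries alone, 57, became 103 within 100 bp, 117 with the 9000 highest summits and 126 to 347 when a library was left out. No paired analysis was possible because the authors' deposited table holds group means, with no value per library. Depth is unknown, which limits what the weak sites can show.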
